A study of Rattus norvegicus with 6 samples.

Results

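The axon guidance ligands and receptors of the rat Schwann cell line RSC96 were examined as 1 set of genes: semaphorins with plexins and neuropilins, slits with ROBO receptors, netrins with UNC5 receptors, ephrins with Eph receptors, and the FLRT proteins. Members were matched by gene symbol, and 69 of the 16849 genes in the count table belonged to these families, 38 ligands and 31 receptors. The set was chosen with earlier results of these data known. RSC96 is a single immortalised line derived from rat peripheral nerve, labelled wild type in every library. In the PVDF@PDA group, cells were kept in a hypoxia model together with the piezoelectric material PVDF@PDA. The PCL@PDA group had the same hypoxia model with the non-piezoelectric material PCL@PDA, and the Control group is labelled only as Control. Hypoxia was modelled with macrophage-conditioned medium for 24 h, and the labels do not say whether Control cells received that medium, so each difference from Control is one between whole conditions. Titles and treatment fields set the groups, since the free-text description of both PCL@PDA libraries gives PVDF@PDA as their material. Each group had 2 libraries, called replicates 1 and 3 after batches 1 and 3 in the labels. The stated purpose of the design was to assess the piezoelectric effect on Schwann cell transcripts under hypoxic stress.

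Guidance ligands are secreted or membrane-bound proteins that attract or repel growing axons and migrating cells through receptors on the cell surface. Secreted class 3 semaphorins bind neuropilins, which signal through plexins. Slits bind ROBO receptors, netrins bind DCC and UNC5 receptors, and ephrins bind Eph kinases on neighbouring cells. FLRT proteins bind UNC5 receptors and the adhesion receptors called latrophilins. In injured rodent nerve, ephrin-B on fibroblasts and Ephb2 on Schwann cells are known to sort Schwann cells into cords, and macrophage Slit3 acts on Schwann cell Robo1 in the nerve bridge.

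Library totals were 32760123 to 35389307 counts, and the 69 members together took 0.416% to 0.432% of them. The PCL@PDA pair differed most, with a chi-square between its libraries, divided by its degrees of freedom, of 10.2, beside 4.80 in the PVDF@PDA pair and 5.56 in the Control pair. The labelled cell type was checked with 18 Schwann cell markers, of which 17 were in the table and 5 were under 0.294 CPM (counts scaled to library size by TMM) in every library. Pmp22, Ncam1 and Cnp were present, whereas the repair-cell receptor gene Ngfr was near 0. The Schwann markers summed to 230.5 to 239.9 CPM in the 4 material libraries and to 194.6 and 207.7 CPM in Control libraries. Fibroblast markers summed to 1179 to 1195 CPM in material libraries and to 1179 and 1176 CPM in Control libraries, carried by Col1a2, Pdpn and Thy1, with Dcn and Fap near 0. Macrophage markers summed to 7.44 to 8.97 CPM in material libraries and to 7.56 and 7.89 CPM in Control libraries, and Ptprc was listed at or near 0. Endothelial markers summed to 16.7 to 19.4 CPM in material libraries and to 16.3 and 17.9 CPM in Control libraries, and neuron markers to 1.49 to 3.27 CPM against 3.03 and 0.918 CPM. Of the tested Schwann markers, 2 rose and 1 fell with PVDF@PDA and 3 rose and 1 fell with PCL@PDA, of 12. Of 5 tested fibroblast markers, 3 rose and 1 fell with each material. Of 4 tested endothelial markers, 0 passed with PVDF@PDA and 1 rose with PCL@PDA. Of 5 tested macrophage markers 0 passed with either material, and 4 were higher with each. Their median log2 difference was 0.95 with PVDF@PDA and 1.03 with PCL@PDA, with 2 and 1 at an unadjusted p below 0.05. Of 3 tested neuron markers 0 passed with either material, at medians of 0.77 and 0.15. Over all genes 15.7% passed with PVDF@PDA and 20.1% with PCL@PDA. The part of these markers in the results was not tested. In bulk RNA, fewer cells of a type and less RNA per cell cannot be told apart.

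Only a few guidance genes made up most of the guidance transcripts of these cells. Per gene length, Sema3c, a secreted semaphorin, had the highest level, with 217 and 217 FPKM in PVDF@PDA libraries, 215 and 203 FPKM in PCL@PDA libraries and 242 and 234 FPKM in Control libraries. The Eph receptor gene Epha2 followed with 195 and 212 FPKM in PVDF@PDA libraries, 207 and 219 FPKM in PCL@PDA libraries and 201 and 203 FPKM in Control libraries, and its range over the 6 libraries overlapped that of Sema3c. Nrp2, a neuropilin that binds class 3 semaphorins, came next with a mean of 134 FPKM over the 6 libraries, and its highest library lay below the lowest of Epha2. Plxnb2, a plexin that binds class 4 semaphorins, followed at 55.1 FPKM, again with no overlap. These 4 genes held 79.6% of the summed FPKM of the 69 members. Efnb2 (25.9 FPKM), a transmembrane ephrin, and Flrt3 (21.4 FPKM) overlapped each other in range. Sema3b (15.4 FPKM), Slit2 (11.2 FPKM) and Sema4b (10.4 FPKM) were next in order.

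Most families were led by 1 gene. Epha2 held 99.4% of the EphA sum, Nrp2 99.5% of the neuropilin sum, Slit2 99.9% of the slit sum, Robo1 97.0% of the ROBO sum, Flrt3 97.5% of the FLRT sum and Unc5b 93.9% of the UNC5 sum. Sema3c held 83.9% of the semaphorin sum, Plxnb2 80.2% of the plexin sum and Efnb2 76.4% of the ephrin-B sum. EphB and ephrin-A receptors and ligands were spread more evenly, with 52.5% of the EphB sum from Ephb4 and 36.4% of the ephrin-A sum from Efna5. Netrins were scarce, with a family sum of 0.385 to 0.764 FPKM, 66.4% of it from Ntn3. Ntn1, the best-known netrin, had 0 to 2 counts per library, and the netrin receptor gene Dcc was also near 0.

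**Figure D1:**
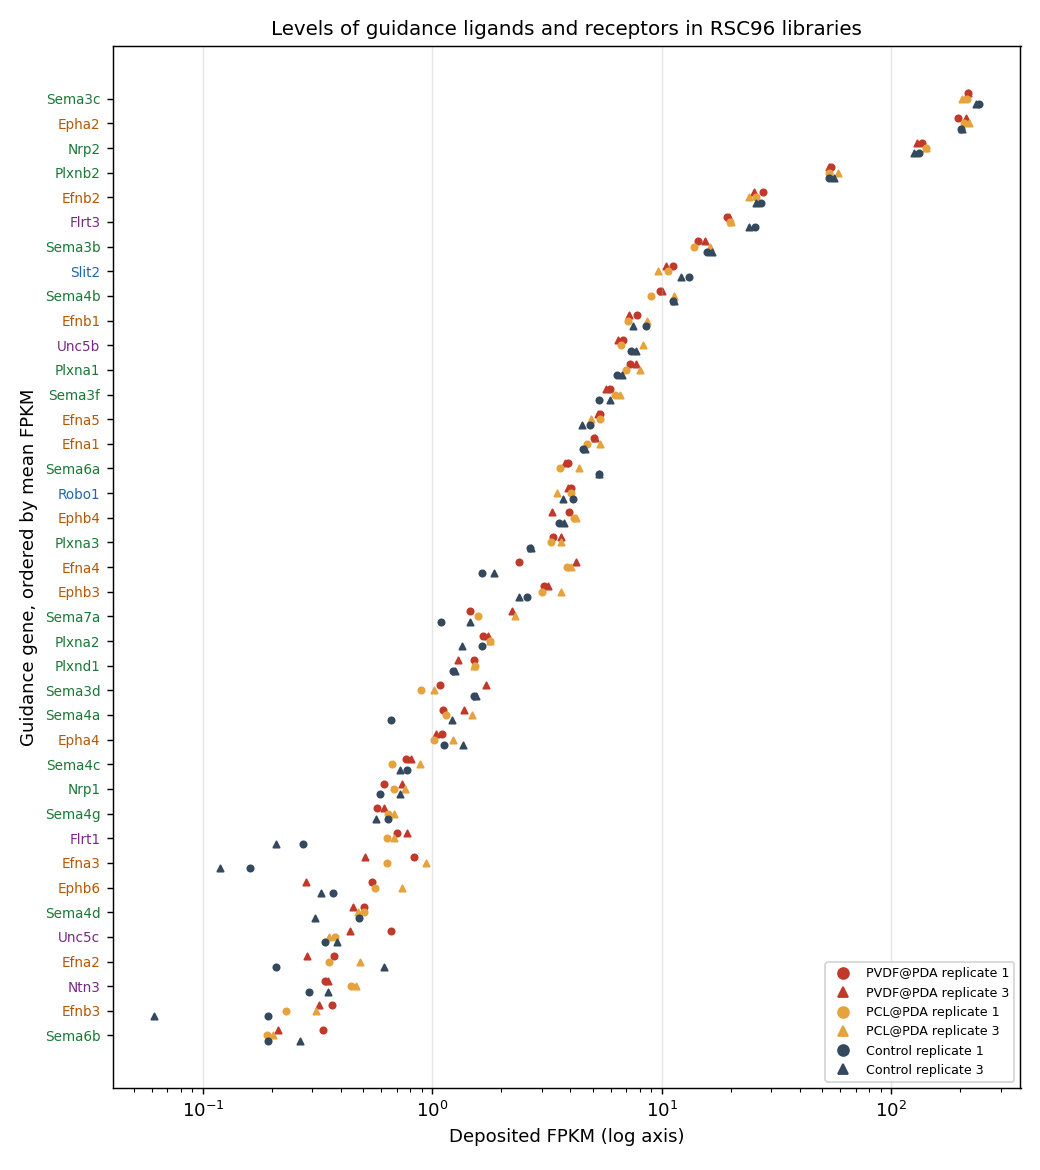
Deposited FPKM (log axis) of the 39 guidance genes with the highest mean over the 6 libraries; each point is 1 library, coloured by group and shaped by replicate, and gene labels are green for semaphorins, plexins and neuropilins, blue for slits and ROBO, orange for ephrins and Ephs, and purple for netrins, UNC5 and FLRT. Sema3c, Epha2, Nrp2 and Plxnb2 stand above the others in every library, while Flrt1, Efna3 and Efna4 show Control points apart from the material points.

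Against Control, PVDF@PDA cells had more transcripts of the ephrin-A genes Efna3 and Efna4 and of Flrt1, and fewer of Sema3c, Sema6a, Slit2 and Flrt3. Of the 69 members 49 had enough counts for a test, and in edgeR's quasi-likelihood test 11 of these passed at an adjusted p below 0.05, with 7 higher and 4 lower. Over all 13018 genes tested, 15.7% passed, 6.79% higher and 8.9% lower. The 7 that rose were Efna3, Efna4, Epha3, Epha7, Flrt1, Plxna3 and Sema6c, and the 4 that fell were Flrt3, Sema3c, Sema6a and Slit2. In PCL@PDA cells 10 of the 49 passed, 5 higher and 5 lower, beside 20.1% of all genes, 8.77% higher and 11.3% lower. There Efna3, Efna4, Flrt1, Plxna3 and Sema6c rose, and Flrt3, Sema3c, Sema3d, Sema6a and Slit2 fell. Both comparisons use the same Control libraries, so their likeness is no separate support.

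Among well-counted members the share called lay near the background. Some of the 49 were tested only because 1 group or some libraries lay above the minimum. Among the 39 members above the minimum of 0.294 CPM in all 6 libraries, 7 (17.9%) passed with PVDF@PDA and 8 (20.5%) with PCL@PDA, beside 16.7% and 21.5% of the 11978 genes that met the same condition. The log2 differences of these 39 from Control ran from -1.41 to 1.58 with PVDF@PDA and from -0.89 to 1.40 with PCL@PDA. The groups did not overlap in 25 of the 49 members with PVDF@PDA, beside 58.5% of all genes, and in 27 with PCL@PDA, beside 56.2%. The median log2 difference of the 49 was 0.01 with PVDF@PDA and 0.08 with PCL@PDA, against 0.01 over all genes in both. The median size of the difference, regardless of sign, was 0.23 with PVDF@PDA and 0.25 with PCL@PDA, against 0.15 and 0.17 over all genes. For the 39 members it was 0.17 with PVDF@PDA and 0.20 with PCL@PDA, against 0.14 and 0.15 over the 11978 genes. By role, 8 of 28 tested ligands passed with PVDF@PDA, 4 higher and 4 lower, beside 15.7% of all genes. Of the 4 higher, Efna3 and Sema6c were tested only through the material libraries where they are high. Meanwhile 3 of 21 receptors passed, all higher, of which Epha3 and Epha7 were tested only through the PVDF@PDA libraries where they are high. With PCL@PDA, 9 ligands passed, 4 higher, again with Efna3 and Sema6c, and 5 lower, beside 20.1% of all genes. Plxna3 was the receptor gene that passed there. With library totals as the scale, the split of all genes was 1164 higher and 879 lower with PVDF@PDA and 1482 higher and 1070 lower with PCL@PDA, while the members divided 7 to 4 and 7 to 5.

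**Figure D2:**
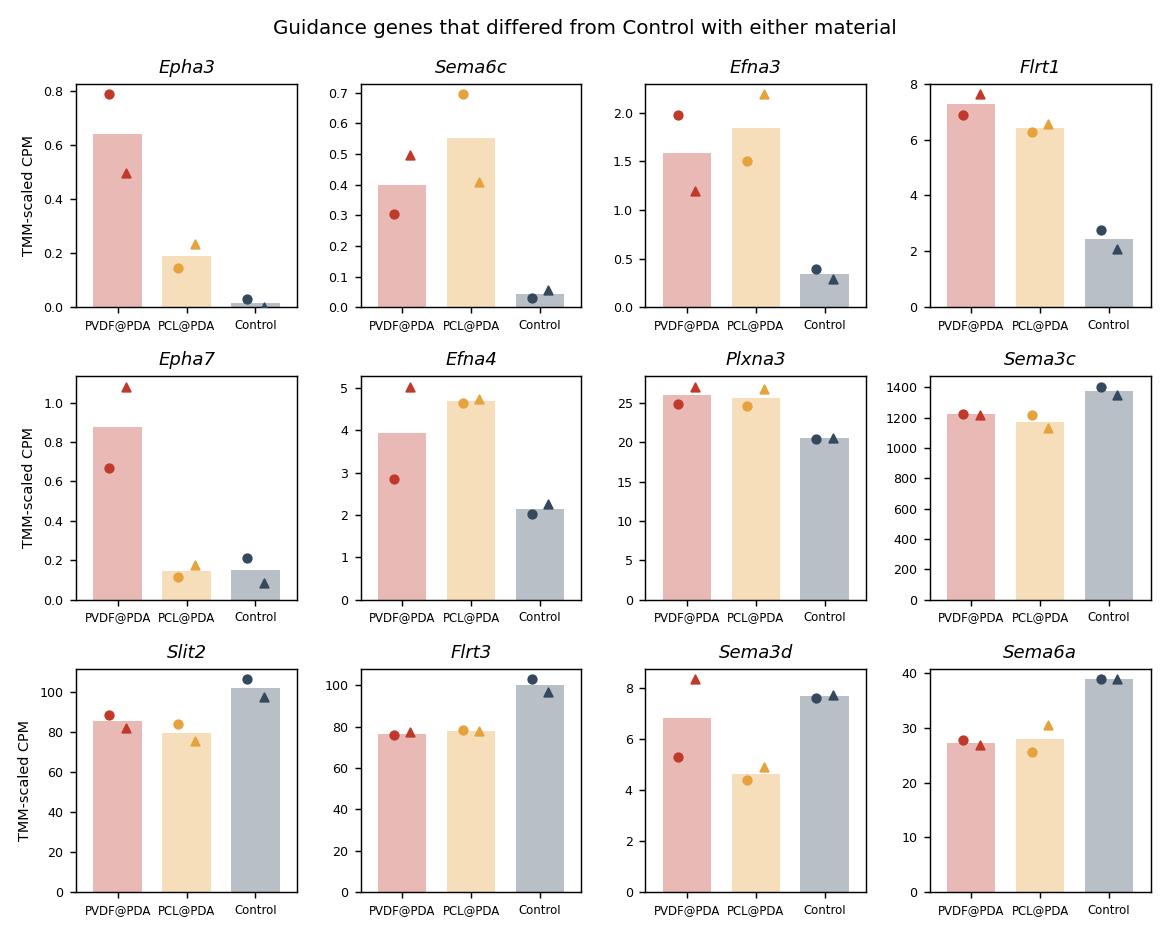
TMM-scaled CPM of the 12 guidance genes that differed from Control with either material; bars are group means, points the 2 libraries of a group (circles replicate 1, triangles replicate 3), in the order PVDF@PDA, PCL@PDA, Control, each panel with its own axis from 0. Flrt1 and Efna3 libraries of both materials lie above both Control libraries, Flrt3, Sema6a, Sema3c and Slit2 libraries lie below them, and Epha7 is highest in both PVDF@PDA libraries.

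Promoter sequences of some members that differed from Control are shown because both material groups were kept in a hypoxia model. Whether Control cells were kept without it is not stated in the labels. Hypoxia-inducible factors are known to bind a core of ACGTG or GCGTG. The windows run from 250 bases before to 50 bases after the annotated gene start, 5′ to 3′ on the gene's strand, from RefSeq on GRCr8. Capitals mark ACGTG or GCGTG on either strand, so the reverse strand reads CACGT or CACGC.
Efna3, chr2:177035789-177036088, minus strand: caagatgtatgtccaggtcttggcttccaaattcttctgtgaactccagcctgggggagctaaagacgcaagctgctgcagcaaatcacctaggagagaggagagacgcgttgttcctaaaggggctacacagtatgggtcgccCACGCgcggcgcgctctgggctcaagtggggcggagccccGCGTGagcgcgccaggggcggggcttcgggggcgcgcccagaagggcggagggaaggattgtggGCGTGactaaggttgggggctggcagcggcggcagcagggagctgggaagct
Plxna3, chrX:157266857-157267156, plus strand: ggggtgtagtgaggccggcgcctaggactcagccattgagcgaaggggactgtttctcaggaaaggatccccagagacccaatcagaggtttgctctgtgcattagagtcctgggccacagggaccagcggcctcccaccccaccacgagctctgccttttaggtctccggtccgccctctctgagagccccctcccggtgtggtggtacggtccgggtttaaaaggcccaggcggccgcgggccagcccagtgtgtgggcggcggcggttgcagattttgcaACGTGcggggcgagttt
Flrt1, chr1:213714626-213714925, minus strand: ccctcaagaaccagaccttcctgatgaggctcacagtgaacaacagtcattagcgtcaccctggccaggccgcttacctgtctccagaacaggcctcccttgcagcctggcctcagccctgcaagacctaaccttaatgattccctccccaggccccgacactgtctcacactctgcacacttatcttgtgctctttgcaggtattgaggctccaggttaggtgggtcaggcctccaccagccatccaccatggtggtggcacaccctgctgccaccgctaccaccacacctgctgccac
Flrt3, chr3:148461356-148461655, minus strand: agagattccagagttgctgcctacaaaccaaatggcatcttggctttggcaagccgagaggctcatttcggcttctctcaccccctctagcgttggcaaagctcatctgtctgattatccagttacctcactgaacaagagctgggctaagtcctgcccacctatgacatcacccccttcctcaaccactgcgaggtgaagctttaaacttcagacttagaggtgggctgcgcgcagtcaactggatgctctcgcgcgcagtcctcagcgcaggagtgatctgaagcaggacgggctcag
Efna3 held 3 matches, at -106, -66 and -2 from the start, and Plxna3 held 1, at 34 after it. Flrt1 and Flrt3 held none in these windows. Neither did Efna4, Epha3, Epha7, Sema3c, Sema3d, Sema6a or Sema6c, whose windows are not printed here. The Flrt1 window reads atg from its annotated start on, as a start codon does, so it may lie downstream of the promoter. Its lack of a match need not describe the Flrt1 promoter, and Flrt1 is among the 7 counted next. The motif was in 2 of the 7 members higher with either material and in 0 of the 4 lower members with an entry, and Slit2 had no entry. It was in 42.9% of all 27457 promoters of the table, in 60.3% of those of tested genes and in 48.7% of those of tested members (19 of 39). A match describes the letters of the window and says nothing of binding.

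Among the ephrin-A ligands, which are tethered to the membrane by a lipid anchor, Efna3 and Efna4 passed with both materials. The family summed to 14.1 and 15.4 FPKM in PVDF@PDA libraries, 14.9 and 15.8 FPKM in PCL@PDA libraries and 11.4 and 11.7 FPKM in Control libraries, with no overlap between Control and either material. In this untested sum, mean FPKM in PVDF@PDA and Control was 3.31 and 1.75 for Efna4 and 5.32 and 4.68 for Efna5. It was 0.671 and 0.140 for Efna3, 5.09 and 4.59 for Efna1 and 0.328 and 0.413 for Efna2. Efna3 was counted 65 and 41 in PVDF@PDA libraries, 52 and 75 in PCL@PDA libraries and 13 and 10 in Control libraries. Both material groups lay above both Control libraries, and Control replicate 3 was under the minimum, so that Efna3 met it through the material groups. Efna3 rose with PVDF@PDA (log2 2.22, SE 0.53, adjusted p = 0.00204) and with PCL@PDA (log2 2.44, SE 0.53, adjusted p = 0.000483). The plain count ratio to Control was 4.80 (95% counting interval 3.03 to 7.89) with PVDF@PDA and 5.63 (95% counting interval 3.59 to 9.21) with PCL@PDA. Without PVDF@PDA replicate 1 the PVDF@PDA call was lost (adjusted p = 0.0683).

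Efna4 was measured at 2.85 and 5.02 CPM in PVDF@PDA libraries, 4.63 and 4.73 CPM in PCL@PDA libraries and 2.01 and 2.27 CPM in Control libraries. All 4 material libraries exceeded the Control libraries, and PVDF@PDA replicate 1 was closest to them. Efna4 rose with PVDF@PDA (log2 0.88, SE 0.28, adjusted p = 0.0201) and with PCL@PDA (log2 1.13, SE 0.27, adjusted p = 0.00173). The PVDF@PDA call rested on single libraries: without PVDF@PDA replicate 3 the log2 difference was 0.41 (adjusted p = 0.553), without Control replicate 1 the adjusted p was 0.122 and without Control replicate 3 it was 0.0501. The more abundant Efna5 (5.05 FPKM) and Efna1 (4.91 FPKM) did not pass, with log2 differences of 0.15 (adjusted p = 0.365) and 0.11 (adjusted p = 0.619) with PVDF@PDA and 0.10 (adjusted p = 0.584) and 0.09 (adjusted p = 0.674) with PCL@PDA. In the ephrin-B family, Efnb2 and Efnb1 did not pass either, at -0.03 (adjusted p = 0.893) and -0.13 (adjusted p = 0.464) with PVDF@PDA and -0.13 (adjusted p = 0.412) and -0.07 (adjusted p = 0.708) with PCL@PDA.

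Among the EphA receptors, tyrosine kinases that bind ephrin-A ligands, the dominant Epha2 showed 759.9 and 823 CPM in PVDF@PDA libraries, 807 and 842 CPM in PCL@PDA libraries and 804 and 807 CPM in Control libraries. The groups overlapped, and the log2 difference from Control was -0.03 (adjusted p = 0.794) with PVDF@PDA and 0.03 (adjusted p = 0.709) with PCL@PDA. Epha4 was at -0.25 (adjusted p = 0.369) with PVDF@PDA and -0.19 (adjusted p = 0.495) with PCL@PDA. Epha3 and Epha7 were scarce and were tested only because PVDF@PDA libraries lay above the minimum. Epha3 was counted 26 and 17 in PVDF@PDA libraries, 5 and 8 in PCL@PDA libraries and 1 and 0 in Control libraries. It passed with PVDF@PDA (adjusted p = 0.00294, count ratio 44.8 (95% counting interval 7.62 to 1808)) and did not with PCL@PDA (adjusted p = 0.0994). The call was lost without PVDF@PDA replicate 1 (adjusted p = 0.0645) or Control replicate 3 (0.0829).

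Epha7 was counted 22 and 37 in PVDF@PDA libraries, 4 and 6 in PCL@PDA libraries and 7 and 3 in Control libraries. Both PVDF@PDA libraries lay above all others, and Epha7 rose with PVDF@PDA (log2 2.54, SE 0.83, adjusted p = 0.0278; count ratio 6.14 (95% counting interval 3.12 to 13.5)). With PCL@PDA its log2 difference was -0.02 (adjusted p = 0.994). The call was lost whenever a PVDF@PDA or Control library was left out, with adjusted p-values of 0.0871 and 0.320 without PVDF@PDA replicates 1 and 3 and 0.0939 and 0.282 without Control replicates 1 and 3. No EphB receptor passed. Ephb4, the most abundant of them, was at -0.05 (adjusted p = 0.861) with PVDF@PDA and 0.16 (adjusted p = 0.432) with PCL@PDA. Ephb3 was at 0.29 (adjusted p = 0.189) with PVDF@PDA and 0.37 (adjusted p = 0.0669) with PCL@PDA, and the PCL@PDA value passed without PCL@PDA replicate 1 (adjusted p = 0.0237) and with library totals alone (0.0434).

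Ephb2, the receptor gene known for Schwann cell sorting, lay under the minimum and was not tested in the fit of all 6 libraries: 2 and 1 counts in PVDF@PDA libraries, 15 and 9 counts in PCL@PDA libraries and 0 and 0 counts in Control libraries. Its counts were highest in the PCL@PDA libraries and 0 in Control. Set against 3 counts over the Control group, the count ratio of PCL@PDA was 8.16, and the exact 95% counting interval of the ratio began at 6.14. With no filter on low counts Ephb2 passed with PCL@PDA (adjusted p = 0.0332) and did not with PVDF@PDA (0.458). Fits that left out 1 library tested it only through PCL@PDA replicate 1, its highest library. Without that library it was not tested. In the others its log2 difference from Control with PCL@PDA was 6.58 to 6.89, and whether it passed depended on the library left out. None of them called it with PVDF@PDA.

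FLRT genes encode leucine-rich repeat transmembrane proteins that act as adhesion molecules and as ligands of UNC5 receptors. The 2 tested members moved in opposite directions. Flrt1 was measured at 6.89 and 7.62 CPM in PVDF@PDA libraries, 6.28 and 6.57 CPM in PCL@PDA libraries and 2.76 and 2.09 CPM in Control libraries. Every material library was above both Control libraries, and Flrt1 rose with PVDF@PDA (log2 1.58, SE 0.22, adjusted p = 3.83e-07) and with PCL@PDA (log2 1.40, SE 0.23, adjusted p = 3.79e-06). Flrt3, the far more abundant member per length, stood at 76.0 and 77.4 CPM in PVDF@PDA libraries, 78.3 and 78.2 CPM in PCL@PDA libraries and 103 and 97.0 CPM in Control libraries.

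All material libraries lay below both Control libraries, and Flrt3 fell with PVDF@PDA (log2 -0.38, SE 0.07, adjusted p = 1.86e-05) and with PCL@PDA (log2 -0.35, SE 0.07, adjusted p = 5.63e-05). These calls of Flrt1 and Flrt3 held in each of the 6 fits that left out 1 library. The summed FLRT level followed Flrt3 and did not overlap between Control and either material, at 19.9 and 20.4 FPKM in PVDF@PDA libraries, 20.4 and 20.7 FPKM in PCL@PDA libraries and 25.7 and 24.3 FPKM in Control libraries. Flrt2 had 1 count in all. In the GRCr8 annotation Flrt1 lies within Macrod1 and Flrt3 within Macrod2, each on the opposite strand, and the counting strand is not given in the sources used here. The log2 difference of Macrod1 was 0.56 (adjusted p = 0.628) with PVDF@PDA and -0.18 (adjusted p = 0.894) with PCL@PDA, and Macrod2 at 0.17 (adjusted p = 0.735) and 0.20 (adjusted p = 0.653). In all, 5 tested members overlapped another counted gene in that annotation. Among them Sema6a overlapped LOC120098258, which was not tested, on the same strand.

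The UNC5 receptors and the netrins did not pass against Control with all 6 libraries and no batch term. Unc5b, which binds netrins and FLRT proteins, stood at 39.3 and 37.2 CPM in PVDF@PDA libraries, 38.7 and 47.6 CPM in PCL@PDA libraries and 43.9 and 45.6 CPM in Control libraries. The PVDF@PDA libraries were lower than both Control libraries, at log2 -0.23 (adjusted p = 0.0793). That value passed when batch was added to the fit (adjusted p = 0.0445) and in the fit of the 4 libraries compared (0.0260). With PCL@PDA the log2 difference was -0.05 (adjusted p = 0.746). Unc5c was counted 248 and 171 in PVDF@PDA libraries, 149 and 137 in PCL@PDA libraries and 134 and 156 in Control libraries. PVDF@PDA replicate 1 was the highest library, and the log2 difference from Control was 0.56 (adjusted p = 0.0851) with PVDF@PDA and -0.03 (adjusted p = 0.948) with PCL@PDA. Without PVDF@PDA replicate 3 the adjusted p of PVDF@PDA was 0.0375. Of the netrins, Ntn3 was at 0.08 (adjusted p = 0.951) with PVDF@PDA and 0.46 (adjusted p = 0.614) with PCL@PDA, and Ntn4 at -0.41 (adjusted p = 0.809) and 0.10 (adjusted p = 0.955).

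The summed semaphorin level was lower with both materials, as was its leading member Sema3c. The family summed to 257 and 259 FPKM in PVDF@PDA libraries, 254 and 249 FPKM in PCL@PDA libraries and 286 and 279.6 FPKM in Control libraries, and Control did not overlap either material in this untested sum. Sema3c stood at 1224 and 1219 CPM in PVDF@PDA libraries, 1217 and 1129.6 CPM in PCL@PDA libraries and 1404 and 1349.5 CPM in Control libraries. All 4 material libraries were below both Control libraries, and Sema3c fell with PVDF@PDA (log2 -0.17, SE 0.05, adjusted p = 0.00951) and with PCL@PDA (log2 -0.23, SE 0.05, adjusted p = 0.000339). The PVDF@PDA call was lost without PVDF@PDA replicate 1 (adjusted p = 0.0959), PVDF@PDA replicate 3 (0.116) or Control replicate 1 (0.187).

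Sema6a, a transmembrane semaphorin that binds class A plexins, was measured at 27.8 and 26.8 CPM in PVDF@PDA libraries, 25.7 and 30.5 CPM in PCL@PDA libraries and 38.9 and 38.9 CPM in Control libraries. The Control libraries were alike and above all material libraries, and Sema6a fell with PVDF@PDA (log2 -0.51, SE 0.10, adjusted p = 0.000110) and with PCL@PDA (log2 -0.47, SE 0.10, adjusted p = 0.000285). Both calls held in all 6 fits that left out 1 library. Sema3d, another secreted class 3 semaphorin, had 5.28 and 8.35 CPM in PVDF@PDA libraries, 4.40 and 4.90 CPM in PCL@PDA libraries and 7.62 and 7.75 CPM in Control libraries. Both PCL@PDA libraries were below Control, whereas the PVDF@PDA libraries lay on either side of it. Sema3d fell with PCL@PDA (log2 -0.72, SE 0.21, adjusted p = 0.00850) and was at -0.17 (adjusted p = 0.633) with PVDF@PDA.

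Sema6c, a transmembrane semaphorin gene, was counted 10 and 17 in PVDF@PDA libraries, 24 and 14 in PCL@PDA libraries and 1 and 2 in Control libraries, and it was tested only because material libraries lay above the minimum. It passed with PVDF@PDA (adjusted p = 0.0436, count ratio 9.37 (95% counting interval 2.88 to 48.2)) and with PCL@PDA (adjusted p = 0.0118, count ratio 12.9 (95% counting interval 4.10 to 65.4)). The PVDF@PDA call was lost in every fit that left out 1 library, with adjusted p-values of 0.0563 to 0.290, and the PCL@PDA call without PCL@PDA replicate 1 (0.103), Control replicate 1 (0.140) or Control replicate 3 (0.0751). Sema3b, the second most abundant semaphorin gene per length, was at -0.15 (adjusted p = 0.260) with PVDF@PDA and -0.15 (adjusted p = 0.249) with PCL@PDA, passing with PCL@PDA without PCL@PDA replicate 3 (adjusted p = 0.0497). Sema4b was at -0.22 (adjusted p = 0.0904) with PVDF@PDA and -0.20 (adjusted p = 0.116) with PCL@PDA. It passed with PVDF@PDA when batch was added (adjusted p = 0.0486) and in the fit of the 4 libraries compared (0.0275), and with PCL@PDA without PCL@PDA replicate 3 (0.00315).

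Of the semaphorin receptors, Plxna3, a plexin that serves neuropilins as the signalling partner, was measured at 24.9 and 27.1 CPM in PVDF@PDA libraries, 24.6 and 26.8 CPM in PCL@PDA libraries and 20.5 and 20.6 CPM in Control libraries. The 4 material libraries exceeded both Control libraries, and Plxna3 rose with PVDF@PDA (log2 0.34, SE 0.11, adjusted p = 0.0226) and with PCL@PDA (log2 0.32, SE 0.11, adjusted p = 0.0259). The call with PVDF@PDA was lost without PVDF@PDA replicate 3 (adjusted p = 0.252), Control replicate 1 (0.126) or Control replicate 3 (0.120), and that with PCL@PDA without PCL@PDA replicate 3 (0.167), Control replicate 1 (0.140) or Control replicate 3 (0.115). The abundant receptors did not pass: Nrp2 was at 0.00 (adjusted p = 0.981) with PVDF@PDA and 0.09 (adjusted p = 0.191) with PCL@PDA. Plxnb2 was at -0.05 (adjusted p = 0.582) with PVDF@PDA and -0.01 (adjusted p = 0.950) with PCL@PDA, and Plxna1 at 0.15 (adjusted p = 0.169) and 0.15 (adjusted p = 0.168). Nrp1, the other neuropilin gene, was at 0.01 (adjusted p = 0.992) with PVDF@PDA and 0.08 (adjusted p = 0.864) with PCL@PDA. Nrp2 passed with PCL@PDA under library totals alone (adjusted p = 0.0255), and Plxna1 without PCL@PDA replicate 1 (0.0195).

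Slit2, a secreted repellent that signals through ROBO receptors, was lower with both materials. It stood at 88.3 and 81.9 CPM in PVDF@PDA libraries, 83.8 and 75.1 CPM in PCL@PDA libraries and 106 and 97.5 CPM in Control libraries. No material library reached the Control levels, and Slit2 fell with PVDF@PDA (log2 -0.26, SE 0.07, adjusted p = 0.00540) and with PCL@PDA (log2 -0.36, SE 0.07, adjusted p = 8.71e-05). The PVDF@PDA call was lost without PVDF@PDA replicate 3 (adjusted p = 0.146) or Control replicate 1 (0.161). Slit1 had 0 to 4 counts and Slit3 0 or 1 count per library. Robo1 was at -0.02 (adjusted p = 0.911) with PVDF@PDA and -0.10 (adjusted p = 0.482) with PCL@PDA, with overlapping groups. Robo2 was counted 18 and 25 in PVDF@PDA libraries, 33 and 41 in PCL@PDA libraries and 32 and 85 in Control libraries. Its log2 difference was -1.41 (adjusted p = 0.0541) with PVDF@PDA and -0.66 (adjusted p = 0.390) with PCL@PDA. The PVDF@PDA value passed without Control replicate 1 (adjusted p = 0.0155), with no filter on low counts (0.0307) and in the fit of the 4 libraries compared (0.0301).

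**Figure D3:**
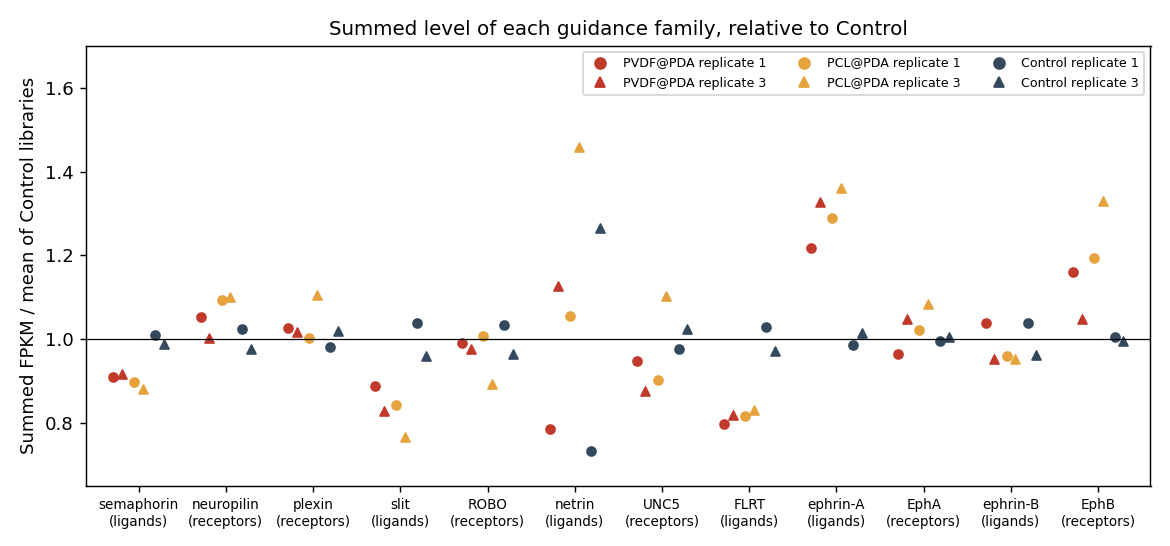
Summed FPKM of each guidance family in each library, divided by the mean of the 2 Control libraries; colours are groups and shapes replicates, with the line at the Control mean. Ephrin-A and EphB sums of all material libraries lie above both Control libraries, semaphorin, slit and FLRT sums lie below them, and the Control libraries of the scarce netrins lie far apart, at 0.734 and 1.27.

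Between the materials, no guidance gene passed. In the comparison of PVDF@PDA with PCL@PDA, 0 of the 49 tested members passed in edgeR, beside 8 of 13018 genes, or 0.0615%, with 0.0538% higher and 0.00768% lower. Among genes above the minimum in all 6 libraries the share was 0.0501%. At an unadjusted p below 0.05 there were 4 members and 1105 genes. With batch as a term 59 genes and 0 members passed. DESeq2 also called 0 members, with 3 at an unadjusted p below 0.05, and limma on log2(FPKM + 1) and log2(FPKM + 0.1) called 0, with 0 and 3. The 4 members were Epha3, Epha7, Sema3d and Unc5c. Epha7, whose counts are given above, had a ratio of PVDF@PDA to PCL@PDA of 6.02 (95% counting interval 3.05 to 13.2), a log2 difference of 2.56 and an adjusted p of 0.398. Epha3 had a ratio of 3.37 (95% counting interval 1.78 to 6.84) and an adjusted p of 0.583. Counting intervals leave out the spread between libraries. Sema3d differed by 0.55 (95% interval 0.14 to 0.97, adjusted p = 0.434), with both PVDF@PDA libraries above both PCL@PDA libraries. Unc5c differed by 0.59 (95% interval 0.14 to 1.04, adjusted p = 0.440), again without overlap.

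For the abundant members the intervals between the materials were narrow. The log2 difference of Sema3c was 0.06 (95% interval -0.04 to 0.16), that of Epha2 -0.06 (-0.16 to 0.04), that of Nrp2 -0.09 (-0.19 to 0.01) and that of Flrt3 -0.03 (-0.16 to 0.11). Flrt1 differed by 0.18 (-0.24 to 0.59) and Efna4 by -0.25 (-0.77 to 0.27). Of the 39 members above the minimum in all 6 libraries, 24 had an interval within 0.5 log2 of 0 and 32 within 1 log2. The groups did not overlap in 17 of the 49 members, beside 38% of all genes tested. Unc5b passed in 1 fit. Without PCL@PDA replicate 1 its log2 difference was -0.32 (adjusted p = 0.0263), where all 6 libraries gave -0.17 (adjusted p = 0.600). In that fit 827 genes passed in all, against 8 with all 6 libraries.

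**Figure D4:**
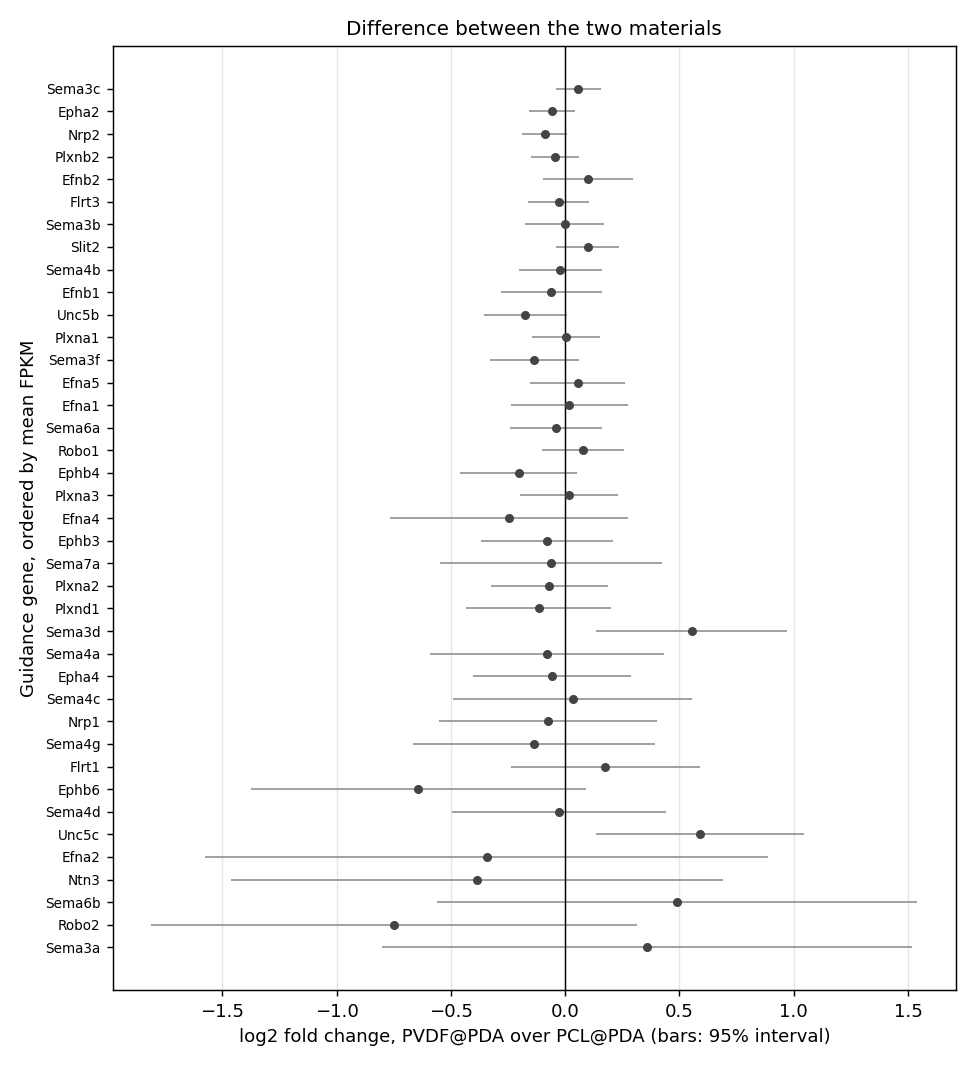
log2 difference of PVDF@PDA over PCL@PDA for the 39 guidance genes above the minimum in all 6 libraries, ordered by mean FPKM, with 95% intervals from the quasi-likelihood fit; the line marks no difference. Intervals are narrow for the abundant genes at the top, and the intervals of Sema3d and Unc5c lie to the right of 0 although neither passed adjustment over all genes.

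Other genes of the guidance pathways were counted from 2 lists. Of 38 further ligands and co-receptors, 25 were tested, and 6 rose and 0 fell with PVDF@PDA, while 5 rose and 0 fell with PCL@PDA. Over all genes 6.79% rose and 8.9% fell with PVDF@PDA, and 8.77% rose and 11.3% fell with PCL@PDA. Gpc1, a glypican that binds slits, was measured at 1.94 and 2.45 CPM in PVDF@PDA libraries, 2.11 and 2.34 CPM in PCL@PDA libraries and 0.960 and 0.430 CPM in Control libraries. Every material library exceeded both Control libraries, and Gpc1 rose with PVDF@PDA (log2 1.66, SE 0.42, adjusted p = 0.00366) and with PCL@PDA (log2 1.68, SE 0.42, adjusted p = 0.00259). Without Control replicate 3 neither call held (adjusted p = 0.105 with PVDF@PDA and 0.0762 with PCL@PDA), nor did that with PVDF@PDA without PVDF@PDA replicate 3 (0.0534). Adgrl1, a latrophilin and thus a receptor of FLRT proteins, stood at 40.6 and 40.9 CPM in PVDF@PDA libraries, 38.8 and 41.3 CPM in PCL@PDA libraries and 29.7 and 33.1 CPM in Control libraries. It rose with PVDF@PDA (log2 0.38, SE 0.09, adjusted p = 0.00221) and with PCL@PDA (log2 0.35, SE 0.09, adjusted p = 0.00360), and both calls were lost without Control replicate 1 (adjusted p = 0.0992 with PVDF@PDA and 0.127 with PCL@PDA). Neo1, a netrin receptor related to DCC, rose at log2 0.23 (adjusted p = 0.00373) with PVDF@PDA and 0.19 (adjusted p = 0.0159) with PCL@PDA, and Dag1, the slit-binding dystroglycan, at 0.22 (adjusted p = 0.00276) and 0.26 (adjusted p = 0.000341). Neo1 was lost without Control replicate 1 (adjusted p = 0.0670 with PVDF@PDA and 0.147 with PCL@PDA), with PVDF@PDA also without PVDF@PDA replicate 3 (0.0856) and with PCL@PDA also without Control replicate 3 (0.0897). The PVDF@PDA call of Dag1 was lost without PVDF@PDA replicate 1 (0.136). Slitrk5 and Sdc1 also rose with PVDF@PDA. The median log2 difference of the 25 was 0.13 with PVDF@PDA and 0.04 with PCL@PDA, against 0.01 over all genes in both.

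Of 67 genes of the cytoplasmic signalling below these receptors, 57 were tested, and more fell than rose: 2 rose and 11 fell with PVDF@PDA, and 5 rose and 15 fell with PCL@PDA. The background was 6.79% higher and 8.9% lower with PVDF@PDA and 8.77% higher and 11.3% lower with PCL@PDA. Src, a kinase activated below Eph receptors and plexins, was measured at 38.4 and 38.6 CPM in PVDF@PDA libraries, 39.2 and 44.9 CPM in PCL@PDA libraries and 54.5 and 60.7 CPM in Control libraries. Every material library was below both Control libraries, and Src fell with PVDF@PDA (log2 -0.58, SE 0.09, adjusted p = 7.87e-07) and with PCL@PDA (log2 -0.45, SE 0.09, adjusted p = 5.96e-05). Dpysl3, of the collapsin response mediator family that relays semaphorin signals, fell at log2 -0.33 (adjusted p = 2.18e-05) with PVDF@PDA and -0.40 (adjusted p = 4.83e-07) with PCL@PDA. Dpysl2, the other tested member of that family, rose at 0.28 (adjusted p = 0.00396) with PVDF@PDA and 0.32 (adjusted p = 0.000823) with PCL@PDA. Rock2, a kinase of growth cone collapse, stood at 981 and 1005 CPM in PVDF@PDA libraries, 971 and 885 CPM in PCL@PDA libraries and 1241 and 1172 CPM in Control libraries. It fell with PVDF@PDA (log2 -0.28, SE 0.05, adjusted p = 3.32e-05) and with PCL@PDA (log2 -0.38, SE 0.05, adjusted p = 6.10e-08).

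Rasa1, a Ras GTPase-activating protein that binds Eph receptors, had 209 and 213 CPM in PVDF@PDA libraries, 193 and 173 CPM in PCL@PDA libraries and 256 and 258 CPM in Control libraries. It was lowest with PCL@PDA, and fell against Control with PVDF@PDA (log2 -0.28, SE 0.06, adjusted p = 0.000183) and with PCL@PDA (log2 -0.49, SE 0.06, adjusted p = 1.91e-09). Between the materials the log2 difference of Rasa1 was 0.20 (adjusted p = 0.266), which passed with batch in the fit (adjusted p = 0.0230) and without PCL@PDA replicate 1 (0.000141). Without a batch term, no gene of either list passed between the materials in the fit of all 6 libraries. At an unadjusted p below 0.05 there were 2 in each list.

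**Figure D5:**
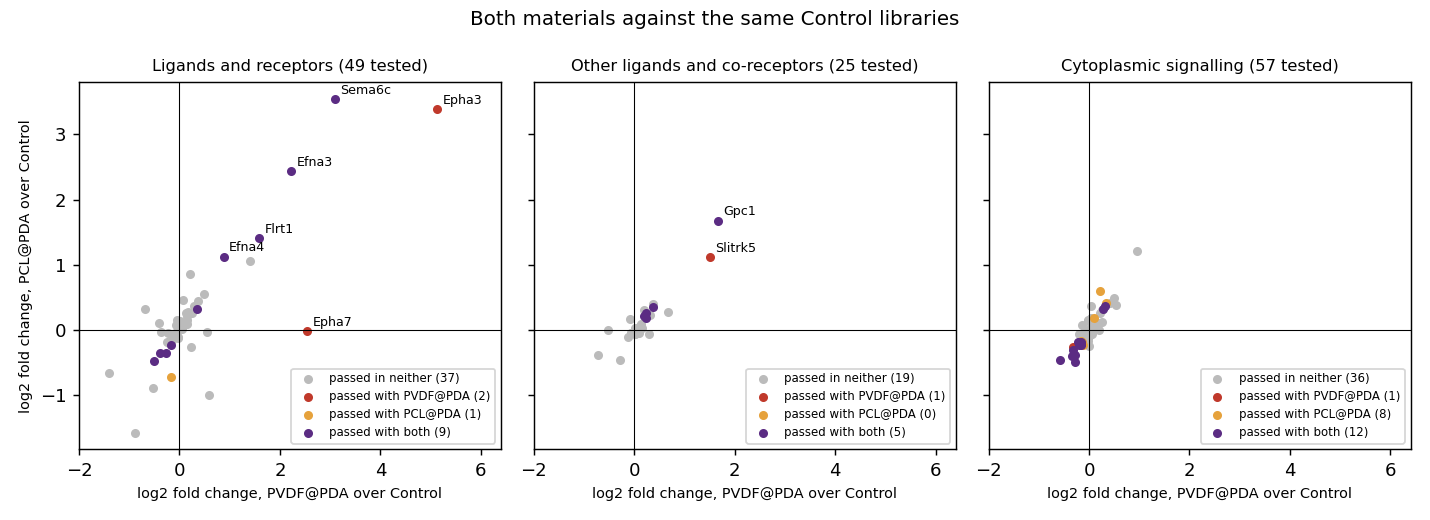
log2 difference from Control of each tested gene with PVDF@PDA (horizontal) and PCL@PDA (vertical), for the 49 guidance ligands and receptors, 25 further ligands and co-receptors and 57 signalling genes; colours mark where a gene passed. Both axes use the same Control libraries, so likeness along the diagonal is no separate support; Epha7 lies near 0 on the vertical axis.

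The other 20 members, under the minimum with all 6 libraries, had 0 to 15 counts per library, and 14 of them had at most 10 counts over all 6 libraries. Unc5a, a further netrin receptor gene, had 8 and 7 counts in PVDF@PDA libraries, 12 and 5 counts in PCL@PDA libraries and 0 and 2 counts in Control libraries, so counts were highest in material libraries. In GRCr8 it overlaps Hk3 on the opposite strand. The log2 difference of Hk3 from Control was 1.88 (adjusted p = 0.156) with PVDF@PDA and 1.88 (adjusted p = 0.140) with PCL@PDA. Robo3 had 0 and 3 counts in PVDF@PDA libraries, 0 and 13 counts in PCL@PDA libraries and 8 and 5 counts in Control libraries, with PCL@PDA replicate 3 the highest and both PVDF@PDA libraries below both Control libraries. Flrt2, Plxnb3, Sema5a, Sema5b, Epha6 and Epha8 had 1 count each in all. At this depth 3 counts correspond to 0.0848 to 0.0916 CPM, and the 14 with at most 10 counts over all 6 libraries could not be resolved. With no filter on low counts, only Ephb2 of the 20 passed, and that with PCL@PDA against Control, as given above.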

How the data were processed

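Raw read counts of each gene in the 6 libraries were deposited by the authors. The deposited FPKM values were scaled by the authors by gene length and library total. The submitters' processing notes name DESeq2 1.4.5 and the assembly mRatBN7.2, without their role. The aligner, the counter, the annotation and the strand setting were not given in the sources used here.

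The counts were modelled with edgeR 4.0.16 under R 4.3.3, after TMM scaling and filterByExpr on the groups, in a robust quasi-likelihood fit of 3 group means over 6 libraries (3 residual degrees of freedom). The filter kept 13018 of 16849 genes, at a minimum of 0.294 CPM of library totals. The 2-sided quasi-likelihood F test was adjusted by Benjamini-Hochberg over all genes tested, and adjusted p below 0.05 was called. The test also drew on spread shared across genes, with a median of 50.3 prior degrees of freedom. Adjusted p-values are from this test unless another tool is named, and each difference is on the log2 scale. Standard errors and 95% intervals of log2 differences were derived from the difference and its F statistic. Each level named CPM is TMM-scaled, except the minimum and the floor of 3 counts, which use library totals. The script was tested on simulated data. Count ratios have exact 95% intervals, which cover counting error only, as does the floor of 3 counts.

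The labels do not say that libraries came from separate cultures, so the p-values reflect nothing but the spread of these samples, and that spread may be technical. No pair of libraries agreed within sampling noise. Replicates 1 and 3 carry the labels batch 1 and batch 3 in every group, which pairs them by label. Deviations from the group means correlated across genes at -0.00444 between PVDF@PDA and PCL@PDA, 0.0483 between PVDF@PDA and Control, and 0.142 between PCL@PDA and Control.

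Named were all members that passed in any comparison, the 2 members of each family with the highest FPKM, and up to 4 genes of each pathway list with the smallest p in PVDF@PDA against Control. Slitrk5, Sdc1, Dpysl2, Sema4b, Robo3, Unc5a, Ephb2, Efna2, Ntn1, Slit1, Slit3 and Dcc are named outside this rule. So are the members counted once, the single cell type markers and the overlapping genes Macrod1, Macrod2, Hk3 and LOC120098258. All of these were picked once their values had been seen. The members and lists were chosen with earlier results of these data known. Gene IDs of all 69 members matched RefSeq, and 55 had a promoter entry on GRCr8. Alternatives were RLE and library-total scaling, no filter, DESeq2 1.42.0, batch as a term, a non-robust fit, only the 4 libraries compared, limma 3.58.1 on log2(FPKM + 1) and log2(FPKM + 0.1), and each library left out.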

Additional observations from a re-analysis of the deposited data

How the results depend on the processing

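With batch as a replicate block in edgeR, 13 members passed in PVDF@PDA against Control, the 11 passing without it plus Sema4b and Unc5b, and 10 in PCL@PDA against Control, with no other call of a tested member changed. With the replicate block 59 genes passed between PVDF@PDA and PCL@PDA, against 8 without it, and 15 with the block in DESeq2, with 0 members in each. Between the materials library totals alone gave 5 genes, no filter on low counts 17, DESeq2 5, and limma on either FPKM scale 0, with 888 and 781 at an unadjusted p below 0.05. Leaving out 1 library gave 0 to 827 genes and 0 to 1 members between the materials, 1031 to 2869 genes and 6 to 13 members with PVDF@PDA against Control, and 1346 to 3173 genes and 8 to 12 members with PCL@PDA against Control. Of the members called, 3 of 11 with PVDF@PDA (Flrt1, Flrt3 and Sema6a) and 8 of 10 with PCL@PDA (all but Plxna3 and Sema6c) passed in all 6 of these fits. In DESeq2 7 members passed with PVDF@PDA, and 6 with the block. Epha3, Epha7 and Sema6c had no adjusted p there, while Efna4 had 0.0618 without the block and 0.111 with it, and Plxna3 had 0.0734 with it. With PCL@PDA 9 members passed in DESeq2 and 7 with the block, where Efna3 and Sema6c had no adjusted p and Plxna3 had 0.0770. With limma on log2(FPKM + 1), 2 members and 486 genes passed with PVDF@PDA and 3 members and 810 genes with PCL@PDA. On log2(FPKM + 0.1), 0 passed in either, with 2876 and 3183 genes and 11 and 14 members at an unadjusted p below 0.05. The cause of these differences was not tested. All other counts of calls stayed within 1.5 times. Every called member kept its sign under every alternative run. Depth limits the scarce members most: Epha3, Epha7 and Sema6c rest on 0 to 37 counts per library. With no filter on low counts, Epha7 (adjusted p = 0.0725) and Sema6c (0.0958) did not pass with PVDF@PDA against Control, whereas Robo2 did.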
